A study of Mus musculus with 4 samples.

Results

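Adipogenic transcription factors are the DNA-binding proteins that turn a mesenchymal precursor into a fat cell. The 8 genes described here are Pparg, Cebpa, Cebpb, Cebpd, Ebf1, Rxra, Ppard and Nr1h3, and every probe set that the platform annotation gives to 1 of them was taken, which made 13 of the 22626 probe sets outside the array controls. They were measured on 4 Affymetrix arrays in C2C12, a mouse myoblast line in wide use. On 2 arrays the cells had been held for 48 hours in semi-solid methyl cellulose, which brings them into the resting state G0, with purified Wnt3A, a secreted ligand of the β-catenin pathway, at 50 ng/ml. On the other 2 (control) they had been held there for 48 hours without it. All cells had been grown in 20% fetal calf serum. The labels name the replicates biological without saying whether cultures were started separately, so p-values measure only the spread between these arrays.

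In fat cell formation C/EBPβ and C/EBPδ, the products of Cebpb and Cebpd, act early and switch on Pparg and Cebpa, whose products PPARγ and C/EBPα then maintain each other and drive the genes of lipid storage. EBF1 is a further activator of the programme, and RXRα, encoded by Rxra, is the partner with which PPARγ, PPARδ (Ppard) and the oxysterol receptor LXRα (Nr1h3) bind DNA. Wnt proteins that act through β-catenin are known in preadipocyte cultures to hold the programme back, and the series title asks for β-catenin networks of quiescent myogenic cells.

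The mRNA signals of Ebf1, Cebpa and Pparg were lower on both Wnt3A arrays than on both control arrays, by 4.30-fold, 3.52-fold and 2.53-fold at the probe set of highest signal. The other Ebf1 probe sets were lower by 2.42-fold and 2.79-fold. Cebpa was less than 2-fold lower without Wnt3A replicate 2, as was Pparg without control replicate 1. Cebpb was lower by less than 2-fold, Nr1h3 and Ppard were slightly higher, and in Cebpd and Rxra the groups overlapped. No probe set of the 8 genes passed the test across the array, which called 0 of 16969 probe sets (0%) at an adjusted p of 0.05 in limma. At an unadjusted p under 0.05 in limma there were 839 probe sets, 459 of them lower (2.7% of those tested). Among the 13 there were 5, all lower, of which 3 belong to Ebf1 and were designed from the same sequence accession.

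Values are log2 signals of a probe set, as deposited, a difference is Wnt3A minus control on that scale, and ± gives the SD of 2 arrays. A probe set was tested if its mean over the 4 arrays was above 2.01, the lowest 25% being taken as dim, and all 13 passed. The number of arrays limits the precision. Median signals were 4.15 to 4.22 per array. Array pairs correlated at 0.947 to 0.983 over the tested probe sets, lowest for Wnt3A replicate 2 with control replicate 1 and highest for Wnt3A replicate 1 with control replicate 1. The 18S rRNA probe sets averaged 10.46 and 9.40 on the Wnt3A arrays and 10.42 and 7.21 on the controls, so control replicate 2 stands apart there. Scaling to the 18 hybridization control probe sets, which averaged 7.35 and 7.0 with Wnt3A and 7.42 and 7.57 in control, moved the median difference of all tested probe sets to 0.32, against -0.0037 as deposited. Relative to that median every difference given here is nearly the same under either scaling. The scaling adds the same amount to every difference, so counts of higher and lower genes under it carry that shift. The matching share of all tested probe sets was not counted.

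The cells carried myoblast transcripts. Desmin (Des) was at 9.08 and 8.10 with Wnt3A and 8.73 and 8.92 in control, and Myf5 at 7.77 and 7.65 with Wnt3A and 6.57 and 5.98 in control. The myogenic regulator Myod1 was at 6.32 and 3.62 with Wnt3A and 6.84 and 7.11 in control, a difference of -2.00 that was -0.65 without Wnt3A replicate 2. The differentiation factor Myog was at 7.42 and 6.66 with Wnt3A and 8.0 and 9.27 in control, and the satellite cell gene Pax7 lay near 2.01 in both groups. Of 8 tested myoblast markers 6 were lower and 2 (Myf5 and Pax7) higher, and 0 passed an adjusted p of 0.05 in limma; 3 were lower under the scaling to hybridization controls. Of the defining genes of mature fat cells, the adiponectin gene Adipoq (0.97 and 1.14 with Wnt3A, 1.5 and 1.38 in control), Cidec and Lep were below 2.01 in both groups. Retn was the only 1 of the 4 such genes with a named probe set that was above it. The canonical pathway readout Axin2 was at 5.13 and 6.14 with Wnt3A and 3.25 and 3.21 in control, and the feedback inhibitor Nkd2 at 6.42 and 4.54 with Wnt3A and 3.06 and 2.66 in control. All 6 tested readout genes were higher with Wnt3A, 5 of them above both controls as were 15.1% of all tested probe sets, and 0 passed. Notum differed by 0.83 (0.54 without control replicate 1). Apcdd1 differed by 0.69 and Lef1 by 1.46, against 0.44 and 0.46 without Wnt3A replicate 1.

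**Figure D1:**
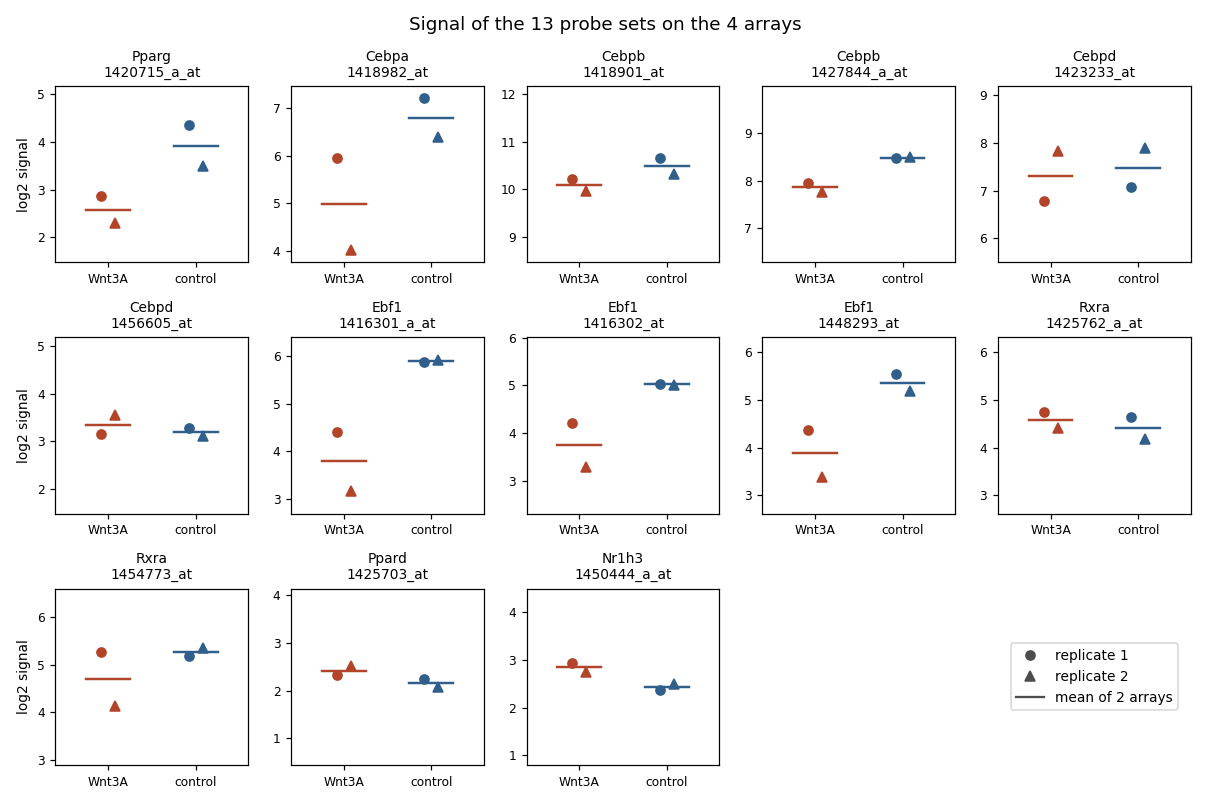
Log2 signal (y axis, every panel spanning the same width) of each of the 13 probe sets on the 2 Wnt3A arrays (left, red) and the 2 control arrays (right, blue). Circles are replicate 1, triangles replicate 2 and lines group means; the groups do not overlap for Pparg, Cebpa, Cebpb, Ebf1, Ppard and Nr1h3, while Cebpd and Rxra overlap.

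Pparg, the nuclear receptor without which fat cells do not form, has 1 probe set (1420715_a_at). It read 2.86 and 2.30 on the Wnt3A arrays and 4.35 and 3.49 on the control arrays, so that the closest arrays of the groups were 0.63 apart. Means were 2.58 ± 0.40 with Wnt3A and 3.92 ± 0.61 in control, a difference of -1.34 (95% confidence interval -2.32 to -0.36, SE 0.38, limma adjusted p = 0.842). Its signal was modest, at the 41.4th percentile of all probe sets by mean, and the Wnt3A arrays lay close to the limit for dim probe sets. In each group replicate 2 was the lower array, by 0.57 with Wnt3A and by 0.86 in control. Without control replicate 1 the difference was -0.91, less than 2-fold, against -1.77 without control replicate 2. In bulk RNA, fewer cells with a transcript and less of it per cell cannot be told apart, here and in all that follows.

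Cebpa, which works with Pparg to fix the fat cell state, also has 1 probe set (1418982_at). It read 5.94 and 4.01 with Wnt3A and 7.20 and 6.39 in control. The groups were 0.45 apart at their closest, and again replicate 2 was the lower array in both, by 1.93 with Wnt3A and by 0.81 in control. Means of 4.98 ± 1.36 with Wnt3A and 6.79 ± 0.57 in control gave a difference of -1.82 (95% interval -3.67 to 0.035, SE 0.71, limma adjusted p = 0.977). The size rests on Wnt3A replicate 2, without which the difference was -0.85, against -2.78 without Wnt3A replicate 1.

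The early factors differed less. Cebpb, which is induced first in the adipogenic cascade and also serves inflammatory and stress responses, has 2 probe sets. At 1427844_a_at it read 7.96 and 7.77 with Wnt3A and 8.48 and 8.49 in control, a difference of -0.62 (95% interval -1.12 to -0.12, SE 0.19, limma adjusted p = 0.896). At 1418901_at, at the 98.0th percentile of all probe sets by signal, it read 10.23 and 9.96 with Wnt3A and 10.67 and 10.33 in control, a difference of -0.40 (SE 0.21). Both probe sets put both Wnt3A arrays below both controls, but the gap was 0.11 at 1418901_at, and with arrays scaled to their hybridization controls that probe set differed by -0.085 and its groups overlapped.

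Cebpd, the other early factor, showed no difference that held from array to array. Its brighter probe set (1423233_at) read 6.79 and 7.84 with Wnt3A and 7.07 and 7.90 in control. Replicate 2 lay above replicate 1 by 1.05 with Wnt3A and by 0.83 in control, more than the groups lay apart. The difference was -0.17 (95% interval -1.41 to 1.07), and it was above 0 without control replicate 2, without Wnt3A replicate 1 and after scaling to hybridization controls. The dimmer probe set (1456605_at) read 3.15 and 3.55 with Wnt3A and 3.27 and 3.11 in control, a difference of 0.16 (95% interval -0.43 to 0.74) that was -0.041 without Wnt3A replicate 2.

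Ebf1, a factor of early adipogenesis better known for specifying B cells, had the widest difference of the 8 genes with all 4 arrays, and its 3 probe sets pointed the same way. Without Wnt3A replicate 1, or without control replicate 2, Cebpa was wider, at -2.78 and -2.22 against -2.72 and -2.09 for Ebf1. At 1416301_a_at it read 4.41 and 3.17 with Wnt3A and 5.88 and 5.92 in control, with 1.47 between the closest arrays of the groups. Means of 3.79 ± 0.87 with Wnt3A and 5.90 ± 0.027 in control gave a difference of -2.11 (95% interval -3.29 to -0.92, SE 0.45, limma adjusted p = 0.697). The control arrays nearly coincided, while the Wnt3A arrays were 1.23 apart with replicate 2 lower.

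At 1416302_at Ebf1 read 4.22 and 3.28 with Wnt3A and 5.04 and 5.01 in control, a difference of -1.27 (SE 0.37, limma adjusted p = 0.846). At 1448293_at it read 4.38 and 3.39 with Wnt3A and 5.54 and 5.20 in control, a difference of -1.48 (SE 0.40, limma adjusted p = 0.808). With any 1 array left out, the 3 differences stayed between -2.72 and -0.81, the least without Wnt3A replicate 2. Ranked by p among the 16969 tested probe sets, 1416301_a_at stood at place 155.

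Among the receptor partners only Rxra 1454773_at was lower. Rxra, the common dimer partner, has 2 probe sets that disagreed in sign. At 1454773_at it read 5.26 and 4.14 with Wnt3A and 5.17 and 5.36 in control, so only Wnt3A replicate 2 was low. The difference of -0.57 (95% interval -1.68 to 0.54) was -0.0097 without that array. At 1425762_a_at Rxra read 4.74 and 4.41 with Wnt3A and 4.63 and 4.18 in control, a difference of 0.17 (95% interval -0.56 to 0.90), which was -0.053 without control replicate 2.

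Ppard, the fatty acid receptor that promotes fatty acid oxidation in muscle, read 2.32 and 2.51 with Wnt3A and 2.24 and 2.07 in control (1425703_at). The difference was 0.26 (95% interval -0.15 to 0.67, limma adjusted p = 0.977), and the closest arrays were 0.084 apart on a signal just above the limit for dim probe sets. Nr1h3, the gene of the cholesterol sensor LXRα, read 2.94 and 2.76 with Wnt3A and 2.37 and 2.51 in control (1450444_a_at). It differed by 0.41 (95% interval -0.026 to 0.85, SE 0.17, limma adjusted p = 0.977) and was higher with any 1 array left out, by 0.32 to 0.50, also at a low signal.

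**Figure D2:**
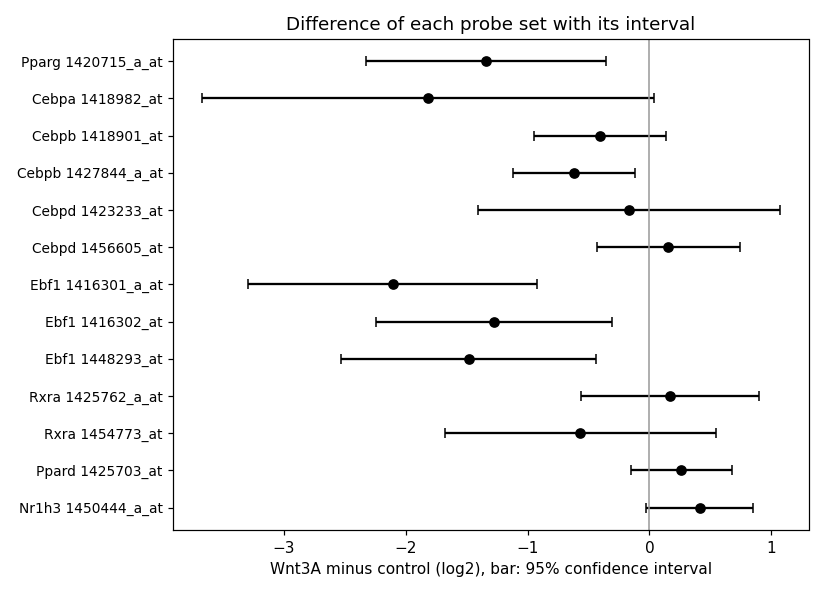
Difference in log2 signal, Wnt3A minus control (x axis), of each of the 13 probe sets, with its 95% confidence interval from limma. The intervals of Pparg, the 3 Ebf1 probe sets and Cebpb 1427844_a_at lie below 0, before any adjustment over the array, and the others include 0.

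Of the 13 probe sets 9 were lower and 4 higher with Wnt3A, where 50.6% of all tested probe sets were lower. Both Wnt3A arrays lay below both controls in 7, against 17.9% of all tested probe sets, and above both controls in 2, against 15.1%. At least 2-fold lower with groups apart were 5 (Pparg, Cebpa and the 3 of Ebf1), against 1.7% of all, and none was at least 2-fold higher with groups apart, against 1.34%. The median difference was -0.57 for the 13 and -0.0037 for all tested probe sets. Several probe sets of 1 gene are not independent, and counted by gene there were 3 of 8 at least 2-fold lower. The share of all genes was not counted, so this cannot be set against the 1.7% of probe sets. Scaled to hybridization controls, which moved the median of all tested probe sets to 0.32, 8 of the 13 were lower, 6 lay below both controls and 3 above. Shares of all tested probe sets were not counted under that scaling, so these counts cannot be set against the shares above.

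Wnt3A replicate 2 alone gave the wider difference in 10 of the 13 probe sets and Wnt3A replicate 1 alone in 3 (Nr1h3, Rxra 1425762_a_at and Cebpd 1423233_at). The share of all tested probe sets was not counted. Over all of them Wnt3A replicate 2 correlated less with control replicates 1 and 2 (0.947 and 0.964) than Wnt3A replicate 1 did (0.983 and 0.970). With Wnt3A replicate 2 alone against both controls 6 of the 13 were at least 2-fold lower with the groups apart, where 4.67% of all tested probe sets were. With Wnt3A replicate 1 alone 2 were, where 1.41% of all were, namely Pparg with -1.06 and Ebf1 with -1.49 at 1416301_a_at. None was at least 2-fold higher with the groups apart on either array alone, where 4.35% of all were with replicate 2 and 1.92% with replicate 1. Without Wnt3A replicate 2, Cebpa differed by -0.85 and the other Ebf1 probe sets by -0.81 and -0.99. No direction changed there for Pparg, Cebpa, Cebpb or Ebf1.

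**Figure D3:**
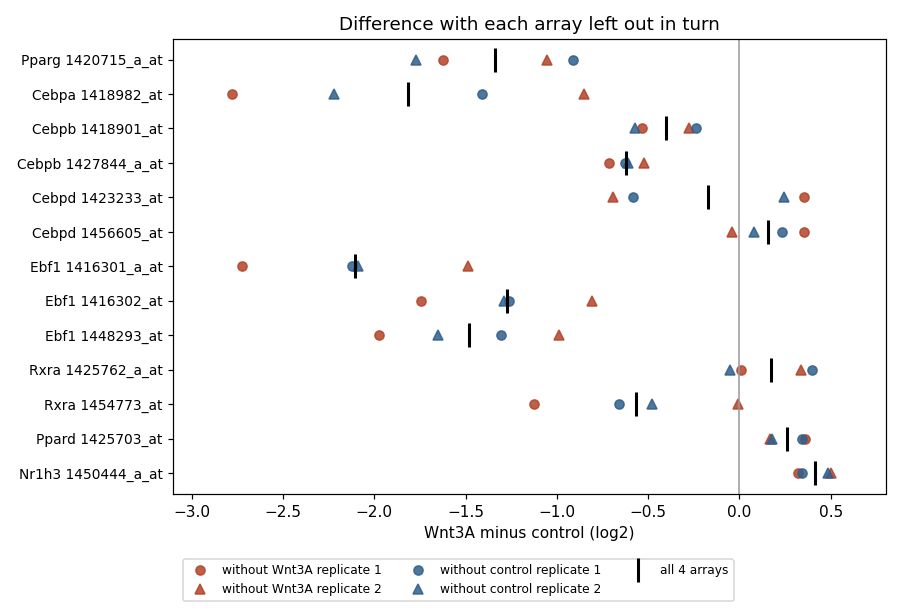
Difference in log2 signal, Wnt3A minus control (x axis), of each probe set with all 4 arrays (black bar) and with 1 array left out (symbols). Pparg, Cebpa, Cebpb and Ebf1 stay below 0 and Ppard and Nr1h3 above 0 throughout, while points of Cebpd and Rxra 1425762_a_at fall on both sides.

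Promoter windows from RefSeq (build GRCm38.p6) were matched for 7 of the 8 genes, Cebpd aside, at 12 transcription starts in all, and the 250 bases before each were searched on both strands. Windows are shown for the core pair, for Cebpb and for Ppard. The window of Cebpa holds none of the binding motifs named next and only a TATA box. Capitals mark matches to TTGCNNAA (C/EBP), CTTTGA (TCF/LEF, through which β-catenin acts), TGACG (the core of the site of CREB, an activator of Cebpb) and TATAAA (the TATA box). No matches overlapped, and the nuclear receptor core AGGTCA was searched as well. Pparg is shown at the third of its 3 listed starts, which lies inside the gene at chr6:115421816-115422065, plus strand. Cebpa is at chr7:35119043-35119292, Cebpb at chr2:167688665-167688914 and Ppard at chr17:28232504-28232753, all on the plus strand.
Pparg: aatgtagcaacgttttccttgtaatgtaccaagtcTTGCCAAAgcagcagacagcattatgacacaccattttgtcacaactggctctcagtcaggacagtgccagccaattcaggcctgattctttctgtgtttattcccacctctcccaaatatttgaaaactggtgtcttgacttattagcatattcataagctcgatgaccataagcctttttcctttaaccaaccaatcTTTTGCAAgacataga
Cebpa: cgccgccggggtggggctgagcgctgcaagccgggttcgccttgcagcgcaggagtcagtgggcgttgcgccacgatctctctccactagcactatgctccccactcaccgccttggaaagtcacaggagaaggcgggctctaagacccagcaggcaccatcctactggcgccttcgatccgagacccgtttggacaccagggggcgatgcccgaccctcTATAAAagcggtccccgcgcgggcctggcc
Cebpb: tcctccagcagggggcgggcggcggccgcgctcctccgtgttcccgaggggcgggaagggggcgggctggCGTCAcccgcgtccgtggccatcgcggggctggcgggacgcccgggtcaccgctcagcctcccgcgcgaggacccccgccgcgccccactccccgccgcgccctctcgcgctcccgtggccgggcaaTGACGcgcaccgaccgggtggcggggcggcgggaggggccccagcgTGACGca
Ppard: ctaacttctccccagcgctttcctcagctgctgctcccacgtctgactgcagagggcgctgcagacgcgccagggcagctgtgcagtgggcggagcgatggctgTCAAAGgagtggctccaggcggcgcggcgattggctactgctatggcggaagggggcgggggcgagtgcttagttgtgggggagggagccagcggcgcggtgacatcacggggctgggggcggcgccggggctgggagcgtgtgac

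The Pparg window holds 2 C/EBP matches, beginning 215 and 16 bases before the start, and no other of the 12 windows holds any, where 9.56% of 32851 windows of that length do. The Cebpb window holds 3 CREB cores, 180, 53 and 7 bases before the start, where 17.8% of all windows hold at least 1. TCF/LEF letters were in the Ppard window only, on the other strand and 146 bases before the start, where 13.8% of all windows hold them. TATA box letters were in 2 of the 12 windows, where 12.4% of all windows hold them. They began 30 bases before the start of Cebpa and, on the other strand, 29 bases before the second start of Pparg. AGGTCA was in 3 of the 12 windows, those of the first 2 starts of Pparg and the second of Rxra, against 14.0% of all. Neither window of Ebf1 held any of these 5 motifs. A match of letters is a description and shows no binding. Sites that depart from these letters were not searched, so a window without a match may still hold a site.

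Genes that carry out the fat cell's work are known targets of these factors. Among 14 tested effector genes 11 were lower with Wnt3A, 8 of these below both controls as were 17.9% of all tested probe sets; 0 passed an adjusted p of 0.05 in limma, and the median difference was -0.24. Under hybridization control scaling, which raises every difference alike, 6 of the 14 were lower and 8 higher. The fatty acid carrier Fabp4, a classical PPARγ target, read 2.26 and 2.66 with Wnt3A and 3.91 and 3.66 in control, and its other tested probe set gave -0.025. Lipoprotein lipase (Lpl) read 6.54 and 4.92 with Wnt3A and 11.10 and 8.70 in control, the widest difference of the list at -4.17. The fatty acid translocase Cd36 differed by -1.24 and the triglyceride synthesis enzyme Dgat1 by -0.91, against -0.71 and -0.59 without control replicate 2. The desaturase Scd1 differed by -1.08, with -0.48 on its other tested probe set. In contrast Plin2, the coat protein of small lipid droplets, read 11.34 and 11.16 with Wnt3A and 11.46 and 11.05 in control.

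The targets of the 2 receptors with higher signals were mixed. Of 8 tested LXR target genes 6 were lower and 2 higher, the median was -0.42 and 0 passed. Scd1 counts here and among the effector genes, and Srebf1 here and among the wider pro-adipogenic factors below. Angptl4 and Plin2 count among both the effector genes and the PPARδ targets, so the lists are not independent. Apoe, the gene of a lipoprotein component, read 7.44 and 3.42 with Wnt3A and 9.70 and 8.63 in control, a difference of -3.74 (SE 1.36, limma adjusted p = 0.974) that was -1.73 without Wnt3A replicate 2. Mylip, which marks lipoprotein receptors for degradation, differed by -0.59 and the phospholipid enzyme gene Lpcat3 by -0.25, the first above 0 without Wnt3A replicate 2 and the second above 0 under hybridization control scaling. Of 9 tested PPARδ targets 5 were higher and 4 lower, the median was 0.0098 and 0 passed. Under hybridization control scaling, which shifts all differences upward, 4 of the LXR targets and 8 of the PPARδ targets were higher. Angptl4, an inhibitor of lipoprotein lipase, read 6.35 and 7.98 with Wnt3A and 6.22 and 6.12 in control, with only Wnt3A replicate 2 far above the others. The β-oxidation genes Acadvl, Acadl and Hadha differed by -0.34, 0.14 and 0.10, with signs that turned for Acadl and Hadha when 1 array was left out.

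Coregulators, the proteins through which nuclear receptors activate or silence genes, were nearly level. Of 11 tested, 8 were lower and 3 higher and the median was -0.072; 0 passed. Under hybridization control scaling 10 were higher, with all differences on the array shifted upward. Nrip1, a corepressor that acts in fat and muscle metabolism, read 7.20 and 7.23 with Wnt3A and 7.45 and 7.57 in control. Tle3, a Groucho corepressor that also assists PPARγ, differed by 0.21 (0.052 without control replicate 1). Ncoa3 differed by -0.23 and Ppargc1b by -0.35, against 0.047 and 0.14 without Wnt3A replicate 2. Nrip1 and Ncoa3 were above 0 under that scaling.

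Regulators known to restrain fat cell formation were split. Of 16 tested 9 were higher and 7 lower with Wnt3A, the median was 0.15 and 0 passed. With the upward shift of all differences under hybridization control scaling, 14 were higher. Bhlhe40, a repressor of the circadian and differentiation circuits, read 9.70 and 9.98 with Wnt3A and 8.75 and 9.15 in control, a difference of 0.88 (SE 0.23, limma adjusted p = 0.789). The Notch effector Hes1 differed by 0.90 and Sox9, a factor of cartilage, by 0.75, against 0.37 and 0.39 without control replicate 1, and another Sox9 probe set gave 0.11. Foxo1, which holds back Pparg, differed by -0.92 (-0.34 without control replicate 2).

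The wider set of pro-adipogenic factors was also mixed. Of 14 tested 10 were higher and 4 lower, the median was 0.16 and 0 passed. Klf4, which acts upstream of Cebpb, read 8.19 and 9.76 with Wnt3A and 7.49 and 7.87 in control, a difference of 1.30 that was 0.51 without Wnt3A replicate 2. Klf5, which acts upstream of Pparg, read 7.71 and 8.03 with Wnt3A and 6.56 and 7.03 in control. Ebf3, a relative of Ebf1, read 5.29 and 3.85 with Wnt3A and 5.42 and 5.84 in control, a difference of -1.06 that was -0.35 without Wnt3A replicate 2. Zfp467 differed by 0.57 (0.26 without Wnt3A replicate 1).

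**Figure D4:**
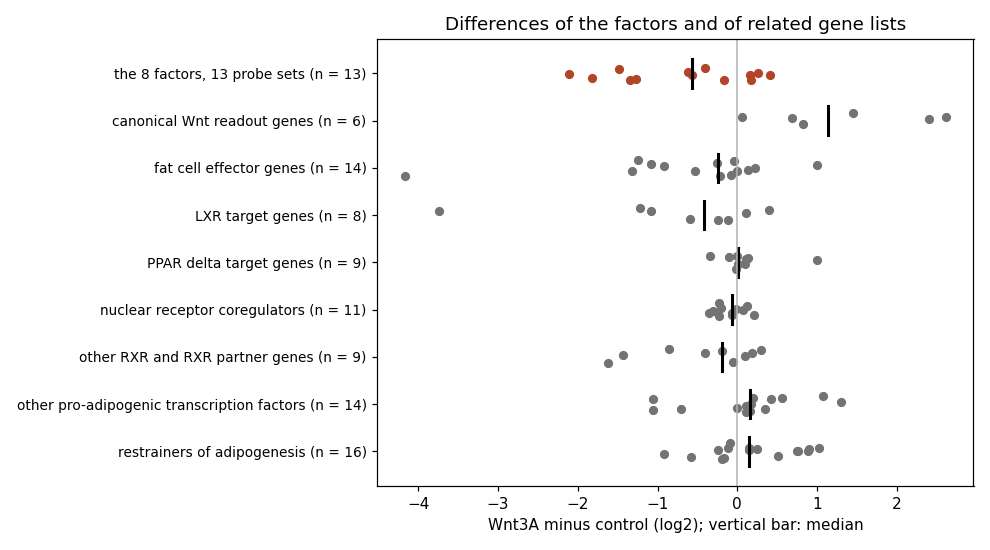
Difference in log2 signal, Wnt3A minus control (x axis), of the 13 probe sets of the 8 factors (red) and of the tested genes of 8 related lists (grey, 1 probe set per gene). The vertical bars are medians, -0.57 for the factors, 1.14 for the Wnt readout genes and -0.24 for the effector genes.

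Markers of other cell types were also measured, and in limma 0 of them reached an adjusted p of 0.05. Of 10 differentiated muscle markers all 10 were lower with Wnt3A, 9 of them below both controls as were 17.9% of all tested probe sets, and log2 of their summed signal was 11.85 and 11.62 with Wnt3A and 12.24 and 13.39 in control. Of 7 tested markers of fibroblasts and preadipocytes 5 were lower, all below both controls, and log2 of the summed signal of the 9 with a named probe set was 12.28 and 11.89 with Wnt3A and 12.59 and 12.59 in control. Among them Pdgfra, a receptor of mesenchymal progenitors, read 8.69 and 7.29 with Wnt3A and 9.18 and 9.25 in control, a difference of -1.22 that was -0.52 without Wnt3A replicate 2, while Lum and Thy1 were below the limit for dim probe sets. Of 8 leukocyte markers 4 were tested, 2 higher and 2 lower, and Ptprc was below the limit. Log2 of the summed leukocyte signal was 6.73 and 7.21 with Wnt3A and 7.77 and 7.65 in control, most of it Cd14. The part of these cell types in the differences of the factors was not tested.

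By distance between centred profiles over the 4 arrays, the genes nearest to Ebf1 among 9684 were Sh3bp5 (root mean square distance 0.113), Samhd1 (0.172) and Dhrs3 (0.179). Sh3bp5, the gene of a protein that binds the kinase BTK, read 5.89 and 4.34 with Wnt3A and 7.24 and 7.27 in control. Nearest to Pparg were Xdh (0.126), which encodes xanthine dehydrogenase, Mgst2 (0.139) and Mmp11 (0.150). Xdh read 3.85 and 3.36 with Wnt3A and 5.67 and 4.55 in control. All these genes were chosen for their nearness to Ebf1 or Pparg over these 4 arrays, so lower signals with Wnt3A were built into the choice. For those near Pparg, so was a lower replicate 2 in each group.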

How the data were processed

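Each array came with 1 deposited number for every probe set, taken here as a log2 signal. Its base was read from the range of the values, and another base would rescale every difference. GCOS and PLIER are named, without version or role, per the submitters' processing notes; scaling, centring, detection calls and scan dates are not stated in those sources. Groups came from the treatment label, since the protocol text mentions Wnt3A for all samples.

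Of 22690 probe sets 64 were array controls; 20380 had 1 gene symbol and 691 several. Probe sets in the lowest 25% by mean were left out. The other 16969 were fitted in R 4.3.3 with limma 3.58.1 (lmFit, eBayes with an intensity trend, group as the only term, two-sided), with Benjamini-Hochberg adjustment over all of them. In the lists a gene stands by its probe set of highest mean. Named were all probe sets of the 8 genes and, per list, the 4 genes of lowest p and any at least 2-fold apart; Plin2, Ppara and the cell type markers named were added with their values known. Genes and lists were chosen with earlier results of these data known. The fit was tested on simulated data.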

Additional observations from a re-analysis of the deposited data

How the results depend on the processing

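No probe set of the 8 genes passed an adjusted p of 0.05 in limma under any alternative run: replicate block, quantile normalization, median centring, hybridization control scaling, no filter, the dimmer 50% left out, no intensity trend, 1 probe set or the mean per gene, and each array left out. Over the whole array the count was 0, but 83 (51 lower) with the replicate block and 68 (28 lower) with hybridization control scaling. With the replicate block the limma adjusted p was 0.068 for Pparg and 0.076 for Ebf1 1416301_a_at. It was 0.091 for Cebpa and Ebf1 1448293_at, and 0.165 or more for the rest. Deviations of same-numbered arrays from their group means correlated at 0.52, but the labels do not say that numbers pair the arrays. The number of the 13 at least 2-fold apart without overlap was 5. It was 4 with hybridization control scaling, where Ebf1 1416302_at differed by -0.96, and 4 with the dimmer 50% left out, Pparg among them. It was 3 with 1 probe set per gene and 3 with the mean per gene, where fewer features are counted. With 1 array left out it was 2 to 6. The median difference of the 13, -0.57, was -0.25 with hybridization control scaling and -0.35 with the mean per gene. Of 155 differences recomputed, 150 kept their sign. Many could not change, so this count does not measure how stable the signs are. The replicate block, no filter, the dimmer 50% left out, no intensity trend and 1 probe set per gene leave each difference as it was. Cebpd 1423233_at turned to 0.15 with hybridization control scaling and ranged from -0.70 to 0.36 with 1 array left out, above 0 without control replicate 2 or Wnt3A replicate 1. Cebpd 1456605_at ranged from -0.041 (without Wnt3A replicate 2) to 0.35, and Rxra 1425762_a_at from -0.053 (without control replicate 2) to 0.40; the causes were not tested. Signals near the limit of 2.01 (Ppard, Nr1h3, Pparg with Wnt3A) can understate differences.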

Other observations

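Of the other RXR genes and nuclear receptors that pair with RXR, Vdr and Nr4a2 were at least 2-fold lower with the groups apart. Vdr, the vitamin D receptor gene, read 4.39 and 3.86 with Wnt3A and 5.49 and 6.0 in control, a difference of -1.62 (SE 0.32, adjusted p = 0.646 in limma), and its other tested probe set gave -1.61. Nr4a2, an orphan receptor of the immediate early class, read 3.96 and 3.13 with Wnt3A and 4.79 and 5.18 in control, a difference of -1.43, with -0.16 on its other tested probe set. Nr4a1, of the same class, differed by -0.85 and the RXR gene Rxrb by -0.40, against -0.49 and -0.19 without Wnt3A replicate 2. Of the 9 tested genes of that list 6 were lower and 3 higher, with a median of -0.19 and 0 passing; under hybridization control scaling 4 were lower. Ppara, the third PPAR gene, was below the limit for dim probe sets, at 1.9 and 2.0 with Wnt3A and 1.94 and 1.58 in control.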
